A study of Arabidopsis thaliana with 18 samples.

Results

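Sorted J0571 cells were set against whole root tips of Arabidopsis thaliana on 6 of the study's 18 arrays, 3 for each kind of material. The J0571 control arrays hold RNA of GFP-positive cells, sorted after the roots had been protoplasted, from seedlings in the C24 background that carry J0571>>pUAS-TMO5-GR and stood on MS medium for 2 h. The root MS arrays hold RNA of root tips from Col-0 seedlings that carry pRPS5A-TMO5-GR and stood on MS medium for 1 h. Seedlings of both groups were 4 days old, and neither group received dexamethasone (DEX) or cycloheximide. All groups carry TMO5-GR, a fusion of the bHLH transcription factor TMO5 to a glucocorticoid receptor domain that needs DEX to act, driven by the J0571 trap in the first group and by the RPS5A promoter, known for its activity in meristem cells, in the second. A second pair of groups, J0571 DEX and root DEX, holds the same materials with DEX and repeats the comparison on 6 other arrays. Ecotype, construct, time on medium, protoplasting and sorting all differ between J0571 cells and root tips and cannot be told apart. The labels call the replicates repeats and do not say whether they were separate cultures, so the p-values measure the spread between these samples, which may be technical.

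J0571 is a GAL4 enhancer trap line known to mark the ground tissue, which is the cortex and the endodermis, the cell layers between the epidermis and the stele. In these layers the zinc finger protein JACKDAW (JKD) helps to set cell fate, and the endodermis seals its walls with Casparian strips. A whole root tip also holds the stele, the epidermis with its root hairs, the root cap and the stem cell niche. Protoplasting digests the cell wall with enzymes and is known from other root studies to raise genes of wounding and stress. No array analysed here holds whole J0571 roots or protoplasted Col-0 roots, so the part of protoplasting in the results was not tested.

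Each array gave a log2 signal for 38408 features, where a difference of 1 is a factor of 2. A total of 16550 genes have a feature named for that gene alone, and the feature of highest mean signal stood for each gene. Array medians were 4.53 to 4.58 in J0571 control and 4.76 to 4.85 in root MS. Pairs of arrays correlated with r of 0.982 to 0.988 within J0571 control, 0.984 to 0.986 within root MS and 0.900 to 0.918 between them, across features, which are not independent replicates. J0571 control replicate 3 differed most from its own group, with an SD of 0.443 over features against 0.361 and 0.393 for the other two, and 0.379 to 0.398 in root MS. In bulk RNA, fewer cells of a type and less RNA per cell cannot be told apart.

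Sorted cells and root tips differed widely. By limma, 18782 of 38408 features (48.9%) passed an adjusted p of 0.05, 10187 of them higher in J0571 control (26.5%) and 8595 lower (22.4%), and 3230 (8.41%) and 4860 (12.7%) did so by a factor of at least 2. Of the features 7132 had values repeated in another feature, and 32879 were distinct. With identical features counted once, 10119 were higher and 6851 lower, 3104 and 3416 of them by a factor of at least 2. The excess of large decreases over features thus lay mostly in repeated features. With the array medians set equal the split was 16024 higher (41.7%) and 6313 lower (16.4%), which is 71.7% of calls higher against 54.2% as deposited, and the median difference over all features was 0.30 against 0.05. Of the 16550 genes 8147 (49.2%) were called. Of these 4999 (30.2% of genes) were higher and 3148 (19.0%) lower, or 50.1% and 13.5% with array medians equal, and 1476 (8.92%) and 1464 (8.85%) changed by a factor of at least 2. For 9000 genes (54.4%) the 3 arrays of J0571 control did not overlap the 3 of root MS. These shares are the background for the genes and gene lists below. Where a list median is given, it stands beside the median of 0.13 over all genes. The plot of group means shows that the largest differences were decreases, with 116 genes at least 4 log2 units lower and 22 at least 4 higher. Whether the probes bind transcripts of C24 and Col-0 equally well was not tested.

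**Figure D1:**
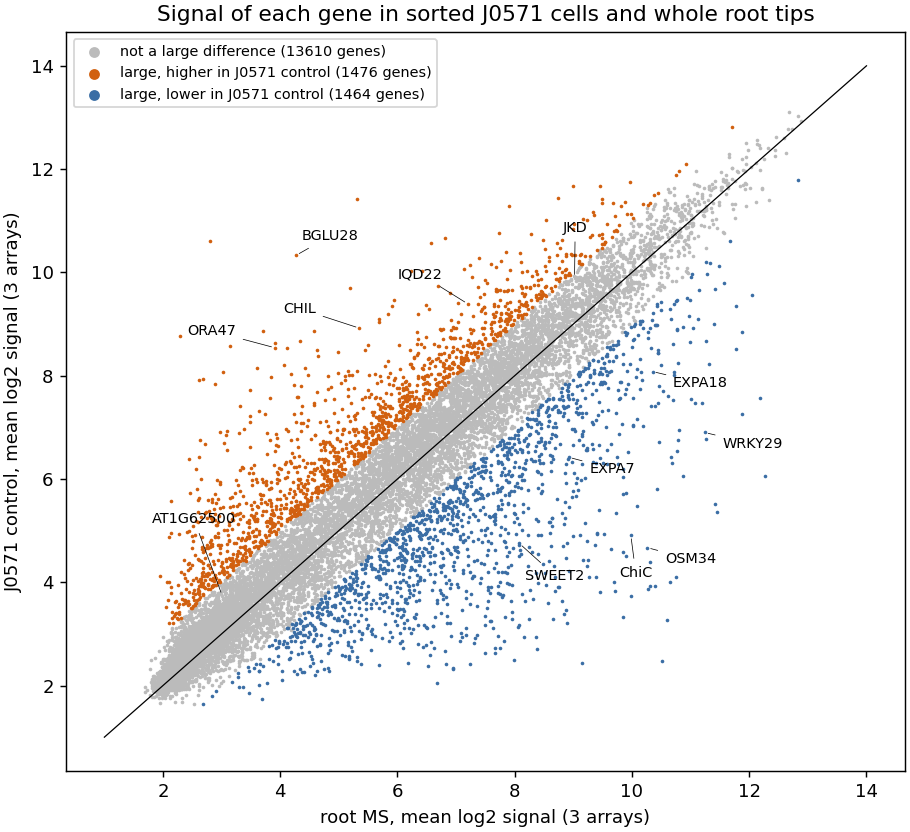
Mean log2 signal of each of 16550 genes in the 3 J0571 control arrays (vertical) and the 3 root MS arrays (horizontal); the line marks equal signals, and coloured points passed the test with a difference of at least 1 log2 unit. The 1476 large increases and 1464 large decreases are alike in number, while the points farthest from the line lie below it.

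The ground tissue genes were higher in J0571 control in 6 of the 7 that could be measured, out of 22 listed, with a median difference of 0.73. JKD had 9.90, 10.03 and 9.74 log2 units in J0571 control, against 9.10, 8.94 and 9.01 in root MS. All 3 sorted samples lay above all 3 root tips, and the difference was 0.87 ± 0.11 (SE, adjusted p = 9.63e-06). AT3G45260 had 6.57, 6.82 and 7.05 in J0571 control, against 6.44, 6.31 and 5.93 in root MS, a smaller gap of 0.58 ± 0.16 (adjusted p = 0.00678). AT1G62500 had 3.48, 3.88 and 3.87 in J0571 control, against 2.88, 3.05 and 3.09 in root MS. Its difference of 0.73 passed the test (adjusted p = 0.000255), but its signal lay below the median of every array. The widest gap was at AT1G09750, with 10.11, 10.82 and 10.78 in J0571 control, against 6.74, 6.73 and 6.28 in root MS, a difference of 3.99 ± 0.26 (adjusted p = 6.28e-09). AT4G28100 was higher by 1.15, as was GSO1, the receptor kinase that monitors the closure of the Casparian strip, by 0.58. AT1G61590, also listed for this tissue, had 10.12, 10.01 and 9.86 in J0571 control, against 10.96, 10.98 and 10.86 in root MS, a difference of -0.93. The 3 genes given as markers of the sorted cells thus lay on the side that the label J0571 names, by factors of 1.5 to 1.83.

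Genes of the outer root layers were lower in the sorted cells. EXPA7 and EXPA18, expansins of growing root hairs, were the epidermal genes that could be measured, out of 16 listed. EXPA7 had 6.33, 6.62 and 6.30 log2 units in J0571 control, against 9.02, 8.83 and 8.90 in root MS, a difference of -2.50 ± 0.18 (adjusted p = 1.83e-08). EXPA18 had 8.13, 8.51 and 7.60 in J0571 control, against 10.34, 10.31 and 10.41 in root MS, a difference of -2.27 ± 0.26 (adjusted p = 3.75e-06). Both fell clear of the root tips, yet both kept signals well above the array median. The only root cap gene measured, AT1G65570, had a mean of 4.46 ± 0.10 in J0571 control and 5.99 ± 0.10 in root MS (SD, n = 3 each), a difference of -1.54.

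Stele genes went both ways. Of the 5 that could be measured, out of 35 listed, 1 was higher, 1 was lower and 4 lay above the array median in both groups. The median difference was -0.13, and 0.11 with array medians equal. PHV, an HD-ZIP III factor of the vascular cylinder, had 5.90, 5.88 and 5.86 log2 units in J0571 control, against 7.05, 7.32 and 7.18 in root MS, a difference of -1.31 ± 0.12 (adjusted p = 3.56e-07). LHW, the bHLH partner of TMO5 in vascular development, had 8.71, 8.58 and 8.62 in J0571 control, against 7.93, 8.27 and 8.15 in root MS, and was higher by 0.52 ± 0.09 (adjusted p = 0.000174). OPS, a phloem regulator, differed by 0.14 ± 0.22 (adjusted p = 0.628). AT5G02460 and AT2G28510 differed by -0.13 and -0.16, without a call. Genes of the stem cell niche were mixed. BBM, a PLETHORA-like AP2 factor of the meristem, was higher by 1.60, AGL42, a MADS gene known from the quiescent centre, fell by 1.34, and the receptor kinase CR4 differed by 0.23 (adjusted p = 0.129, and 0.00272 with array medians equal). Of the lists for suberin and cell division no member has a feature named for it alone.

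**Figure D2:**
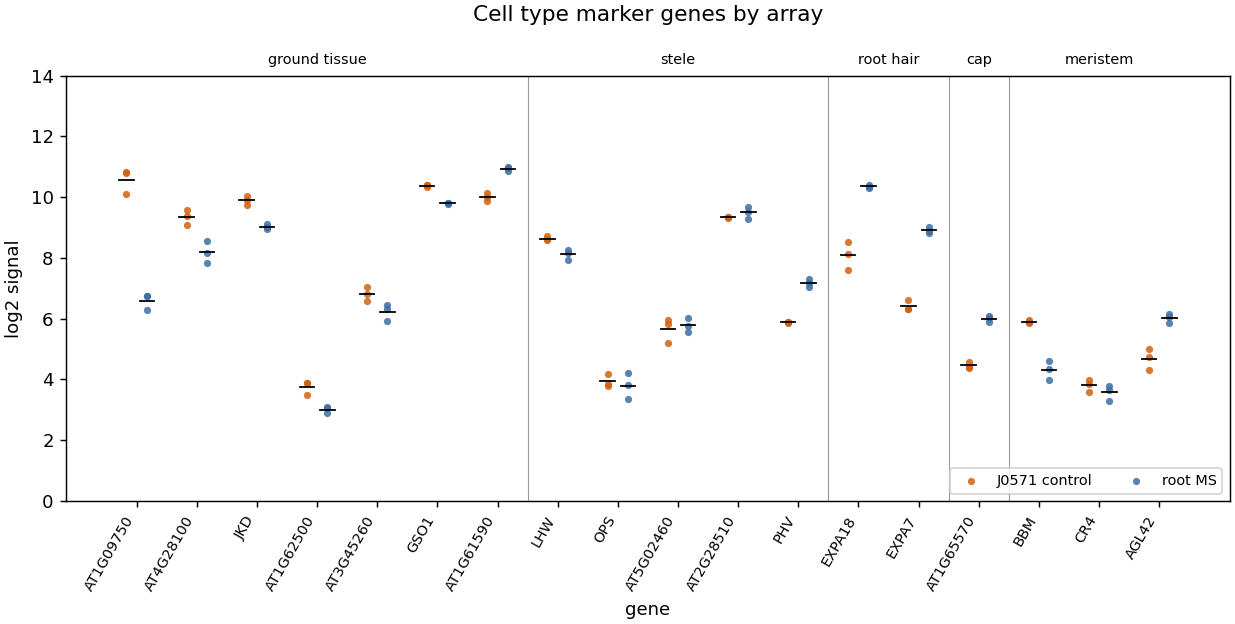
Log2 signal of each cell type marker on each array, with J0571 control left of root MS for every gene and bars at the group means of 3 arrays. The 3 given ground tissue genes (JKD, AT1G62500 and AT3G45260) lie higher in J0571 control on every array, EXPA7, EXPA18 and AT1G65570 lie lower, and OPS, AT5G02460 and AT2G28510 overlap.

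The 15 largest increases were 4.43 to 7.81 log2 units and the 15 largest decreases -8.04 to -5.88. AT4G29200 had 10.65, 10.68 and 10.50 log2 units in J0571 control, against 2.97, 2.58 and 2.84 in root MS, the largest increase at 7.81. AT2G05642 followed with 6.48 and AT4G33930 with 6.12. In root MS the means of AT4G29200 (2.80) and AT2G05642 (2.29) lay below the lower quartile of those arrays (2.85 to 2.90). The sizes of both increases are therefore rough. BGLU28, a beta-glucosidase best known from sulfur starvation, had 10.49, 10.46 and 10.03 in J0571 control, against 4.42, 4.44 and 3.96 in root MS, a difference of 6.05 ± 0.25 (adjusted p = 4.99e-11). The largest decrease was at AT1G55990, with 2.52, 2.80 and 2.08 in J0571 control, against 10.73, 10.44 and 10.36 in root MS, a difference of -8.04. Its mean of 2.47 in J0571 control lay below the lower quartile of those arrays (2.78 to 2.81), close to background, so the size of its decrease, and of others that end as low, is rough. AT2G02680 (-7.33) and AT5G02350 (-6.70) came next. Apart from BGLU28 and ORA47, which was also among the 15 largest increases, none of these loci has a gene symbol in the annotation used.

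Among genes with a symbol, the largest increases after BGLU28 were ORA47 and PRK. ORA47, an AP2/ERF factor of the jasmonate and wound response, had 8.54, 8.58 and 8.5 log2 units in J0571 control, against 3.85, 3.82 and 4.06 in root MS, a difference of 4.63 ± 0.35 (adjusted p = 3.42e-08). PRK, the Calvin cycle enzyme phosphoribulokinase, was higher by 3.93, with 7.54, 6.69 and 6.48 in J0571 control, against 3.04, 3.04 and 2.84 in root MS. The lowest of the sorted samples was thus more than 3 units above the highest root tip for both genes. At the other end stood OSM34, an osmotin-like protein, and ChiC, a class V chitinase, which are described with the defence genes. FACT, the acyltransferase that makes caffeate esters of the waxes in root suberin, had 4.47, 4.91 and 5.29 in J0571 control, against 8.37, 9.16 and 9.43 in root MS, a difference of -4.10 ± 0.41 (adjusted p = 7.58e-07). SFP1, a sugar transporter-like protein, fell by 4.92 on the log2 scale, the metallothionein gene MT1C by 4.24 and the cation antiporter gene CHX16 by 4.12. YUC6, an enzyme of auxin synthesis, had means of 3.66 ± 0.31 in J0571 control and 6.67 ± 0.10 in root MS (SD, n = 3 each), a difference of -3.01.

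Most wall gene families held genes of both directions, as the set of all genes did. Expansins loosen the wall during growth, and 24 of the 38 listed could be measured. Of these 7 were higher and 6 lower, with a median of 0.17. That is near all genes, of which 30.2% were higher and 19.0% lower, with a median of 0.13. The largest increase among them was EXPA20, with 8.38, 8.23 and 8.24 log2 units in J0571 control, against 5.95, 5.78 and 5.79 in root MS, a difference of 2.44 ± 0.11 (adjusted p = 2.28e-10). EXPB1 (1.48) and EXPA8 (1.43) came next. The largest decrease was EXPB3, with 6.29, 6.26 and 6.36 in J0571 control, against 8.85, 9.68 and 9.98 in root MS, a difference of -3.20 ± 0.51 (adjusted p = 8.85e-05). The root MS arrays spread over more than 1 unit there, while the sorted samples lay close together. Xyloglucan hydrolases and transglucosylases, which cut and rejoin the tethers between cellulose fibrils, had 4 higher and 1 lower of 10 measured. XTH16 rose by 1.98. XTH26, known from root hairs, was lower, with a mean of 5.25 ± 0.23 in J0571 control and 8.63 ± 0.10 in root MS (SD, n = 3 each), a difference of -3.39. CSLC04, the synthase of the xyloglucan backbone, had 11.47, 11.42 and 11.42 in J0571 control, against 9.47, 9.46 and 9.53 in root MS, a difference of 1.95 with almost no spread within groups.

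Endoglucanases of glycosyl hydrolase family 9 trim glucans of the wall. Of 19 measured, 6 were higher, none by a factor of 2, and 3 were lower by more than that. With array medians equal 10 were higher and 3 lower. GH9C1, a root hair member of the family, fell to 7.60, 8.05 and 7.05 log2 units in J0571 control, against 9.78, 9.77 and 9.83 in root MS, a difference of -2.23. GH9C2 had the largest increase of the family at 0.99. TBL proteins acetylate wall polysaccharides, and of 23 measured 11 were higher and 4 lower, with a median of 0.26, or 15 and 2 with array medians equal. TBL19 (1.93) and TBL37 (1.66) led, and TBL36 was the lowest at -2.33. Class III peroxidases use hydrogen peroxide to stiffen walls and polymerise lignin. The list matched 14 of them by name, of which 8 were measured, with 1 higher and 3 lower, or 2 and 2 with array medians equal. PRXR1, among the 3 lower, lost its call under several alternatives, such as only the 6 arrays of the comparison (adjusted p = 0.208 by limma). Prx37 had 11.64, 11.59 and 11.10 in J0571 control, against 9.06, 8.80 and 8.32 in root MS, a difference of 2.72 ± 0.21 (adjusted p = 6.21e-08). AT5G64120 had 7.99, 7.60 and 6.97 in J0571 control, against 10.89, 10.56 and 10.66 in root MS, a difference of -3.18 ± 0.22 (adjusted p = 1.78e-08). The median of the 8 peroxidases that the list matched was -0.12, and 0.12 with array medians equal. LAC16, the only laccase measured, was lower, at -2.01.

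Genes of the cytoskeleton and of secretion stood higher in the sorted cells. All 7 tubulin and kinesin genes that could be measured, out of 36 listed, rose, with a median of 0.88, and all 7 also did without J0571 control replicate 3. TUB1, a beta-tubulin, had 9.67, 9.76 and 9.47 log2 units in J0571 control, against 7.81, 7.78 and 7.46 in root MS, a difference of 1.95 ± 0.19 (adjusted p = 6.02e-07). TUB5 followed at 1.85 and TUB7 at 0.93, and the smallest increase was KINESIN-13A at 0.47. Tubulin genes are close copies of each other, and whether the array's probes separate them is not given in the sources used here. XIC and XIE, class XI myosins that move organelles along actin, rose by 2.00 each.

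IQD proteins are calmodulin-binding scaffolds, many of them at microtubules. Of 14 measured 10 rose and 1 fell, with a median of 0.84. IQD22 had 9.62, 9.18 and 9.35 log2 units in J0571 control, against 7.20, 7.25 and 7.13 in root MS, a difference of 2.19 ± 0.12 (adjusted p = 1.65e-09). IQD19 (2.01) and IQD18 (1.81) were next, and IQD20 went the other way, with 6.08 ± 0.26 in J0571 control and 7.83 ± 0.25 in root MS (SD, n = 3 each). SEC genes encode the exocyst, which tethers secretory vesicles to the plasma membrane, and related secretion proteins. Of 11 measured 9 rose and none fell, each by less than a factor of 2. SEC5A had 8.58, 8.56 and 8.45 in J0571 control, against 7.68, 7.85 and 7.70 in root MS, a difference of 0.79 ± 0.08 (adjusted p = 8.96e-07), and SEC3A differed by 0.79. TRM26, of the family that recruits TON1 to microtubules, rose by 2.08.

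Genes of flavonoid and other secondary metabolism also went both ways. CHIL, a chalcone isomerase-like protein that promotes flavonoid synthesis, had 8.94, 9.05 and 8.77 log2 units in J0571 control, against 5.68, 5.29 and 5.08 in root MS, a difference of 3.57 ± 0.14 (adjusted p = 2.75e-11). UGT78D2, which adds glucose to flavonols and anthocyanins, rose by 2.02, with 4.93, 5.49 and 5.22 in J0571 control, against 3.57, 2.82 and 3.18 in root MS. Among UDP-glycosyltransferases, which attach sugars to hormones and secondary compounds, 12 rose and 9 fell of 48 measured. Their median of 0.13 equalled that of all genes, of which 30.2% rose and 19.0% fell. With array medians equal 22 rose and 7 fell, and their median of 0.37 again equalled that of all genes. UGT72E1 and UGT72E2, which glucosylate lignin precursors, moved apart. UGT72E1 had 5.04, 5.14 and 4.65 in J0571 control, against 9.47, 9.61 and 9.52 in root MS, and fell by 4.59 on the log2 scale, while UGT72E2 rose by 2.24. Cytochromes P450, the oxidases of many such pathways, had 1 higher and 7 lower of 26 measured, with a median of 0.06. The list held 244, and most of those measured are of the CYP71B group. With array medians equal 10 were higher and 7 lower. CYP71B38, the 1 that was higher, lost its call under several alternatives, such as without J0571 control replicate 3 (adjusted p = 0.147 by limma). CYP718 was the lowest, with 4.84 ± 0.33 in J0571 control and 7.38 ± 0.09 in root MS (SD, n = 3 each), a difference of -2.54. Beta-glucosidases, which release compounds from stored glucosides, had BGLU28 and BGLU43 (1.18) higher and 6 lower of 22 measured, BGLU44 by the most at -3.37. With array medians equal 5 were higher and 6 lower, and their median was 0.08, against -0.16 as deposited. Glutathione S-transferases, detoxifying enzymes, had 5 higher and 2 lower of 13 measured (9 and 2 with array medians equal), from GSTF4 at -1.79 to GSTU27 at 1.08 and GSTU18 at 1.10. The call of GSTU18 was lost without J0571 control replicate 1 (adjusted p = 0.0764), root MS replicate 1 (0.0648) or root MS replicate 2 (0.0617).

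Stress genes rose in several small groups. The zinc finger list holds C2H2 repressors induced by abiotic stress and wounding. Of 4 measured, out of 8 listed, 3 were higher and none lower, with a median of 1.97. AT3G53600 had 8.87, 8.32 and 8.42 log2 units in J0571 control, against 3.60, 4.88 and 3.86 in root MS, a difference of 4.43 ± 0.38 (adjusted p = 1.62e-07). AT3G46080 had 8.23, 7.96 and 7.86 in J0571 control, against 5.58, 5.14 and 4.79 in root MS, a difference of 2.85. STZ, the salt tolerance zinc finger, had 10.27, 9.84 and 9.72 in J0571 control, against 8.26, 9.01 and 9.28 in root MS, a smaller difference of 1.09 ± 0.26 (adjusted p = 0.00284). ZAT7 stayed at 2.28 ± 0.17 in J0571 control and 2.09 ± 0.12 in root MS (SD, n = 3 each), below the lower quartile of the arrays, and was not called (adjusted p = 0.324, and 0.0174 with array medians equal).

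Calcium sensors of the calmodulin-like list had 4 higher and 2 lower of 7 measured, out of 15 listed, with a median of 1.30. AT1G76640 led with 9.10, 8.86 and 8.64 log2 units in J0571 control, against 3.14, 3.67 and 4.30 in root MS, a difference of 5.16 ± 0.40 (adjusted p = 5.79e-08). CML37 (1.39) and CML38 (1.34) also rose, and both are known to respond to wounding. CML43 and CML42 were lower, at -1.18 and -0.83. ABR1, an ERF repressor of abscisic acid responses, had 10.57, 9.80 and 9.84 in J0571 control, against 6.95, 6.96 and 7.47 in root MS, a difference of 2.94 ± 0.27 (adjusted p = 3.12e-07). GRX480, a glutaredoxin that links salicylic acid and jasmonate signalling, rose by 2.94 and DREB2C, a heat and drought factor, by 1.62. The ERF and DREB list matched 59 genes by name, of which only DREB2C was measured, and it missed ABR1 and ORA47. Hop3, a co-chaperone of HSP70 and HSP90, rose by 1.99. Hsp70-2, the only one of 56 listed heat shock genes that could be measured, rose by 1.41. For Hsp70-2 replicate 3 stood apart, with 5.63, 5.60 and 4.68 in J0571 control, against 3.97, 3.61 and 4.10 in root MS.

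Defence genes of the chitinase and pathogenesis-related list went the other way. Of 4 measured, out of 16 listed, none was higher and 3 were lower, with a median of -3.38. OSM34 had 4.40, 4.70 and 4.90 log2 units in J0571 control, against 9.98, 10.39 and 10.41 in root MS, a difference of -5.59 ± 0.29 (adjusted p = 6.53e-10). ChiC had 4.89, 4.45 and 5.39 in J0571 control, against 9.43, 10.16 and 10.35 in root MS, a difference of -5.07 ± 0.41 (adjusted p = 8.02e-08). In the sorted cells both lay near the array median. The chitinase gene CHI was lower by less, at -1.69. Of 7 WRKY factors measured, out of 72 listed, 1 was higher and 3 were lower, with a median of -0.11, and 0.13 with array medians equal. WRKY29 and WRKY22, which act below the flagellin-activated MAP kinases, had the largest decreases. WRKY29 had 7.40, 7.03 and 6.28 in J0571 control, against 11.16, 11.20 and 11.37 in root MS, a difference of -4.34 ± 0.26 (adjusted p = 3.26e-09), and WRKY22 differed by -2.64. WRKY42, a regulator of phosphate homeostasis, was higher by 0.97. KIN2, a cold- and abscisic acid-induced gene, fell by 3.01 on the log2 scale. The jacalin-related lectin genes JAL22 and JAL31 fell by 4.86 and 4.47.

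**Figure D3:**
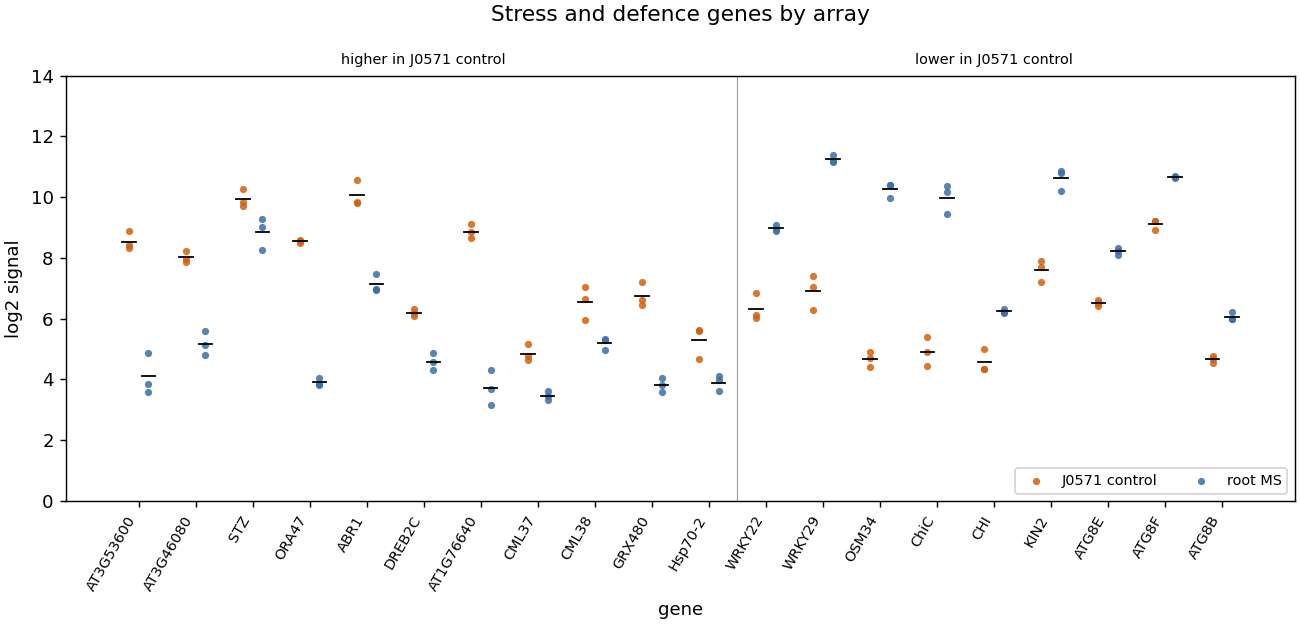
Log2 signal of 20 stress, defence and autophagy genes on each array, J0571 control left of root MS, with bars at the means of 3 arrays; the 11 genes left of the line were called higher in J0571 control and the 9 right of it lower. The samples of the 2 groups do not overlap for any gene drawn, which also holds for 54.4% of all genes.

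Autophagy genes were lower in the sorted cells. ATG8 proteins coat the autophagosome, and ATG3 helps to attach them to its membrane. Of 8 that the list matched and that were measured, 7 were lower and none higher, with a median of -0.64. ATG8E had 6.52, 6.62 and 6.42 log2 units in J0571 control, against 8.32, 8.22 and 8.11 in root MS, a difference of -1.69 ± 0.11 (adjusted p = 8.51e-09). ATG8F (-1.57) and ATG8B (-1.41) followed. With array medians equal 6 of the 8 were lower and 1 higher. APG8A and APG8H, ATG8 genes under older symbols, were missed by the list. They differed by -2.55 and -1.45 (adjusted p = 2.55e-09 and 1.46e-08 by limma), so the largest ATG8 decrease was at APG8A. Ubiquitin conjugating enzymes had 8 lower and none higher of 15 measured, with a median of -0.21, and 5 lower, 2 higher and a median of 0.03 with array medians equal. UBC16 had 6.96, 7.13 and 6.89 in J0571 control, against 9.47, 9.57 and 9.59 in root MS, the largest decrease of the family at -2.55. The U-box ubiquitin ligases PUB22, PUB23 and PUB24, which dampen immune signalling, differed by -0.44, -0.49 and -1.38, among 3 higher and 3 lower of 10 measured. With array medians equal the list had 5 higher and 1 lower, and PUB22 and PUB23 lost their calls (adjusted p = 0.179 and 0.141), as they did with only the 6 arrays of the comparison (0.0623 and 0.0606). PUB22 also lost its call without J0571 control replicate 3 (0.0655), and PUB23 without J0571 control replicate 2 (0.0660) or root MS replicate 2 (0.0525).

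Several sugar transport and peptide signal genes were lower in the sorted cells. SWEET proteins let sugars out of cells or into vacuoles, and of 14 measured 7 were lower, all by more than a factor of 2, and none higher, with a median of -0.63. SWEET2, a vacuolar transporter that limits the loss of sugar from roots, had 4.81, 4.64 and 4.79 log2 units in J0571 control, against 7.81, 8.10 and 8.33 in root MS, a difference of -3.33 ± 0.16 (adjusted p = 3.75e-10). SWEET16, another vacuolar member, had 6.52, 6.70 and 6.73 in J0571 control, against 9.19, 9.53 and 9.57 in root MS, and SWEET11, known for phloem loading in leaves, had 4.96, 5.86 and 5.26 in J0571 control, against 8.60, 7.81 and 7.99 in root MS. Both differed by -2.78. CLE genes encode small signal peptides, and of 9 measured 1 was higher and 3 were lower, or 3 and 2 with array medians equal. CLE26, the smallest of the decreases at -0.62, lost its call under 9 alternatives, 5 of which left out 1 array (adjusted p = 0.0555 to 0.230 over the 9). CLE44 and CLE41 encode TDIF, the phloem-derived signal that keeps procambium cells dividing. CLE44 had 2.71, 2.43 and 2.55 in J0571 control, against 5.0, 5.55 and 5.37 in root MS, a difference of -2.75 ± 0.30 (adjusted p = 1.95e-06), and CLE41 differed by -1.37. CLE40, a signal to the distal stem cells, was higher by 1.12 at a low signal of 3.65 ± 0.25 in J0571 control and 2.53 ± 0.22 in root MS (SD, n = 3 each).

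Of the genes of the plastid genome 63 could be measured, all above the array median in both groups. A total of 26 were higher and 3 lower, with a median of 0.29. The 4 genes of the plastid RNA polymerase all rose. rpoC2 had 10.76, 10.46 and 10.52 log2 units in J0571 control, against 9.47, 9.64 and 9.51 in root MS, a difference of 1.04 ± 0.10 (adjusted p = 4.39e-07), and rpoC1 differed by 0.99, rpoB by 0.62 and rpoA by 0.50. Of 10 ndh genes, for the plastid NADH dehydrogenase-like complex, 6 rose. Of 13 psb genes, for photosystem II, 1 rose and 2 fell: psbM differed by 1.35, psbJ by -1.22 and psbL by -0.71. Without J0571 control replicate 3 the list had 28 higher and 1 lower, and with array medians equal 42 higher and 1 lower. These genes are transcribed together in long units, so their signals are not independent.

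The same comparison on the arrays with DEX, J0571 DEX against root DEX, shares no array with the first, although the fit pools the spread over all 18. It called 19601 features (51.0%), 10535 higher (27.4%) and 9066 lower (23.6%), or 48.3% and 16.5% with array medians equal. Of the genes 31.8% were higher and 19.2% lower. Of the genes called higher in J0571 control 4236 were also called higher in J0571 DEX, which is 84.7% of the first list and 80.5% of the second. For genes called lower the number was 2782, or 88.4% and 87.5%. Over 16550 genes the differences correlated with Pearson's r of 0.967 and Spearman's rho of 0.899, given as a description across genes, and 5 genes passed in opposite directions. JKD was higher by 1.00 with DEX and AT3G45260 by 0.71, while AT1G62500 was higher by 0.36 (adjusted p = 0.0319). BGLU28 (6.82), ORA47 (4.70) and CHIL (3.83) again lay far above root tips, and OSM34 (-5.67), WRKY29 (-4.41) and EXPA7 (-2.27) far below. IQD genes had 10 higher and 1 lower, tubulins and kinesins 7 higher, autophagy genes 7 lower and 1 higher, and SWEET genes 7 lower and 1 higher. The plastid-encoded genes had 18 higher and 8 lower, with a median of 0.08. The difference between the comparisons itself passed for 20 of 38408 features (0.0521%).

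**Figure D4:**
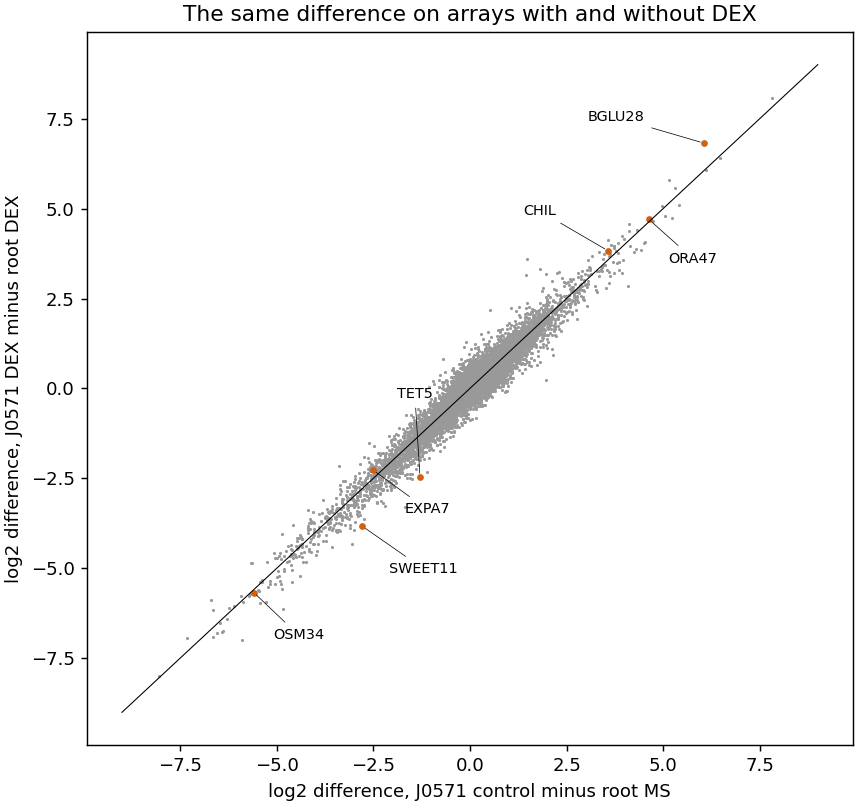
Log2 difference of each of 16550 genes between J0571 and root arrays with DEX (vertical) and without (horizontal); the line marks equal differences and named genes are drawn larger. The points follow the line over the whole range, with BGLU28 at 6.05 without and 6.82 with DEX and OSM34 at -5.59 and -5.67.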

How the data were processed

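Total RNA from 18 samples, 3 in each of 6 groups, was made into whole-transcript cDNA, labelled with biotin and hybridised to Affymetrix gene arrays. The deposited values are log2 signals that the authors made with RMA, per the submitters' processing notes. RMA corrects background, normalizes by quantiles and summarises probes. The notes name no version and do not say whether the 18 arrays went through it as 1 set. Precision is limited by the number of arrays, and the lowest signals are near background.

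The values were used as deposited. Of 38408 features 16722 are named for a single gene in the platform's annotation, 759 for several and 20927 for none. Symbols were updated through Entrez identifiers to TAIR10.1. For each gene the feature with the highest mean over all arrays was kept. Lists were matched to symbols or loci in that annotation, and members without such a feature were not analysed here. Family members under names that the search missed are not in the list counts or medians. No sequences or coordinates are printed.

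The tests used limma, version 3.58.1, under R 4.3.3 (and data.table, version 1.17.8, for reading), with 1 mean per group over all 18 arrays, moderated variances, a two-sided test and Benjamini-Hochberg adjustment over all features. A call has an adjusted p under 0.05, and a large difference is a call of at least 1 log2 unit. The fit was tested on simulated data in which 200 of 38408 features were changed by known folds. It recovered 76% of the 2-fold and 98% of the 4-fold changes, and 4.92% of its calls were false. Far fewer features changed there than were called here, so these rates cannot be carried over to the real comparison. Same-numbered replicates of J0571 control and root MS deviated with r of -0.0235 to 0.106, and those of J0571 DEX and root DEX with -0.0287 to 0.0141, so the numbers were not taken to pair samples in these comparisons.

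Named genes are the 15 largest increases and decreases without overlap of arrays, the 30 largest each way among genes with a symbol, every marker gene, and in each family list the 3 largest called changes each way. A few others are named beside them and were chosen after their values were seen: KINESIN-13A, rpoA, rpoB, APG8A and APG8H. The genes, lists and comparisons were chosen with earlier results of these data known, and the symbol-based lists after it was known which genes the platform names. Alternatives were equal array medians, quantile normalization, other variance options, fewer features or arrays, and each array left out in turn.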

Additional observations from a re-analysis of the deposited data

Results flagged for a closer look

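TET5, a tetraspanin gene, stood out because its difference between J0571 cells and root tips was not the same without and with DEX, by a test of that difference. It differed by -1.29 log2 units between J0571 control and root MS, and by -2.46 between J0571 DEX and root DEX. The gap between these differences was 1.17 (adjusted p = 0.0258 by limma over all features). Without DEX it had 5.63, 5.49 and 5.66 log2 units in J0571 control, against 6.78, 6.84 and 7.04 in root MS, with no overlap. With DEX it had 4.3, 4.56 and 4.64 in J0571 DEX, against 6.91, 7.0 and 6.97 in root DEX. In fits that left out 1 of these 12 arrays, added after seeing the data, the gap was 1.07 to 1.24 and passed the test in 4 (adjusted p up to 0.110). It passed without root DEX replicate 1, root MS replicate 3, or J0571 DEX replicate 1 or 3, and missed with array medians equal (1.09, adjusted p = 0.0820). No other gene named here differed between the comparisons by this test.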

How the results depend on the processing

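Of 238 genes named by rule, 214 kept their direction and their side of the threshold under each alternative that gave a value. For 26 of the 238, 16 of them among the 214, the fit without low features gave none. The directions that turned were all of small differences. AT2G28510 (0.09), AT5G02460 (0.11) and PRXR1 (0.06) turned with array medians equal, AT5G02460 also with quantile normalization (0.05) and without J0571 control replicate 1 (0.10), and OPS without root MS replicate 1 (-0.07). Over the fits that left out 1 array, AT5G02460 ran from -0.28 to 0.10 and OPS from -0.07 to 0.36, neither with a call. Equal array medians gave 16024 features higher in J0571 control, 5070 of them large, and 18566 higher in J0571 DEX. A test against a minimum difference of 1 log2 unit left 3540 large differences, 1360 higher and 2180 lower. With identical features counted once, J0571 control against root MS had 16970 calls, 6520 of them large. J0571 DEX against root DEX then had 17502 calls, 10504 higher and 6998 lower. With features of 1 named gene only, hence fewer tested, J0571 control against root MS had 8427 calls (5185 higher, 3242 lower) and 2992 large ones (1502 higher, 1490 lower), and J0571 DEX against root DEX had 8713 (5426 higher, 3287 lower).

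Leaving out each array in turn, J0571 control against root MS had 17001 to 17728 calls, 9196 to 9689 higher and 7805 to 8172 lower, and 7902 to 8361 large ones, 3207 to 3342 higher and 4576 to 5019 lower. J0571 DEX against root DEX had 17919 to 18319 calls, 9563 to 9784 higher and 8262 to 8539 lower. The replicate number as a block gave 18763 calls without DEX, 10188 higher and 8575 lower; the samples share only a number. Low signals limit what can be seen: a gene near background in J0571 cells or in root tips has only a rough fold change.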

Other observations

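Most other gene families held both directions in the values as deposited, as all genes did (30.2% higher and 19.0% lower). Of 64 AGAMOUS-like MADS factors measured 10 were higher in J0571 control and 7 lower, or 27 and 3 with array medians equal, led by AGL53 (2.18) and AGL61 (1.94) and, downwards, AGL102 (-2.05), and only 10 of the 64 lay above the array median. Of 75 low-molecular-weight cysteine-rich peptides 6 were higher and 3 lower, or 32 and 3 with array medians equal. LCR69, a defensin-like peptide, had 8.10, 8.08 and 8.49 log2 units in J0571 control, against 11.14, 11.35 and 11.45 in root MS, a difference of -3.09 (adjusted p = 5.66e-10 by limma). RALF-like peptides, signals that bind receptor kinases of the wall, had 1 higher and 4 lower of 15, RALFL32 by the most at -1.83, with a median of -0.11, or 2 higher and 3 lower with a median of 0.14 with array medians equal. Serine carboxypeptidase-like proteins had 8 higher and 7 lower of 32, from scpl28 at -2.83 to scpl16 at 1.86. Tetraspanins, membrane scaffold proteins, had 3 higher and 4 lower of 12 (6 and 3 with array medians equal), from TET12 at -2.84 to TET16 at 1.62. Subunits of RNA polymerase II had 6 higher and 2 lower of 9, and 4 and 2 without J0571 control replicate 3. NRPB9A rose by 1.35 and NRPB8B differed by -1.09. Of 8 Aux/IAA genes measured 2 were higher and none lower, or 6 and none with array medians equal. IAA33, a repressor-like Aux/IAA protein, rose by 1.53, with 5.33, 5.47 and 5.38 in J0571 control, against 4.29, 3.72 and 3.57 in root MS. Of 5 histone genes measured 1 was higher, HTB2 by 1.82, and 1 was lower, HIS1-3 with a difference of -0.89, or 3 and 1 with array medians equal. LHB1B2, of the light-harvesting complex, had 7.82, 5.85 and 5.96 in J0571 control, against 8.55, 8.35 and 8.14 in root MS. J0571 control replicate 1 stood apart there, and the difference of -1.80 lost its call without J0571 control replicate 2 (adjusted p = 0.0532).

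A few large differences lay at genes side by side on a chromosome. Of 16550 genes 330 (1.99%) were called with a difference of at least 3 log2 units. In 13 of 10304 pairs of neighbouring genes (0.126%), chosen after their values were seen, both did so the same way, 12 pairs lower in J0571 control and 1 higher. AT1G72850, AT1G72860 and AT1G72870 formed a run of 3 at -3.95, -4.14 and -3.45. AT4G23670 and AT4G23680 differed by -4.94 and -5.90, and AT5G38020 and AT5G38030 by -5.05 and -4.07. The pair that was higher was AT4G12270 (3.43) and AT4G12280 (5.05). Whether the probes of such neighbours share sequence was not tested.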
